A study of Mus musculus with 6 samples.

Results

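The 16181 probes described here make up 29.1% of the 55681 non-control probes of an Agilent single-colour mouse array. Each is named by a stretch of the genome and not by a gene. They were chosen by name alone: every probe whose systematic name gives a chromosome, a start, an end and the suffix F or R was taken, and 13 coordinate-named probes without a suffix were not. The files give the coordinates on NCBI37 (mm9). F and R are treated here as the forward and reverse orientation of one interval, and none of the 16181 probes carries a gene symbol in the files, so the intervals are given by position.

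The arrays measured total RNA from tongue tissue of iDek mice on the C57Bl6 background. In these mice doxycycline (DOX) induces Dek, which encodes a chromatin-bound protein, and the labels describe the induction as ubiquitous and squamous cell-specific. The groups were 3 mice given DOX for 2 weeks and 3 mice left untreated (no DOX). All 6 mice carried the inducible allele, so DOX itself and the induction of Dek cannot be told apart here. The labels used here do not name the promoter or give the age of the mice.

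Long intergenic noncoding RNAs (lincRNAs) are transcripts of the genome between protein-coding genes. Many are spliced and polyadenylated like mRNAs, but most are present at low levels and in fewer tissues than mRNAs are. Some act at their own locus, on chromatin or on the transcription of neighbouring genes, and others act as scaffolds or decoys elsewhere in the nucleus or cytoplasm. Arrays that carry probes to both strands of a transcribed interval are used where the direction of transcription is not known beforehand.

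The 16181 probes fell on 4607 stranded names, that is, an interval with its F or R suffix, and on 3540 intervals. F names held 8171 probes and R names 8010. Of the intervals, 2473 had probes to one strand and 1067 to both. Most names had several probes: 690 had 1 probe, 1809 had 3, 973 had 5, and the most was 10. Interval length ran from 62 bp to 7128487 bp, the latter at chr7:39351858-46480344, with a median of 7315.5 bp. Intervals probed on one strand were shorter, with a median of 2176 bp against 17901 bp where both strands were probed. All 20 chromosomes among the names were probed, and chaining intervals no more than 50 kb apart gave 1724 loci, of which 810 held a single interval. Each probe was printed once on each array.

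Values are log2 of the background-subtracted signal minus the 75th percentile of that array, so a value of 0 is as bright as the upper quartile of all probes. A probe was counted as detected where the scanner software called it well above background. Because probes differ in how strongly they bind, values are compared between arrays for one probe and not between probes. An exception is the choice of the intervals detected on one strand only that are described below.

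Fewer of the interval probes than of the other probes were detected. Between 36.5% and 39.9% of interval probes were well above background on each array, against 63.9% to 65.9% of all other probes. In the no DOX group the numbers were 6277, 6454 and 6092 probes, and in the DOX group 6234, 6177 and 5904. The DOX range lies within and below the no DOX range, and the groups overlap. The share was close to that of the 1346 probes for genes that RefSeq classes as long noncoding RNA, 34.9% to 36.6%, and below that of the 26696 probes for protein-coding genes, 72.3% to 74.2%.

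Detection was mostly all or nothing. Of the 16181 probes, 8392 (51.9%) were detected on none of the 6 arrays and 5085 (31.4%) on all 6. Detection on all 6 was seen for 60.7% of the other probes, 30.6% of the RefSeq long noncoding RNA probes and 69.5% of the protein-coding probes. R probes were detected on all 6 arrays in 33.9% of cases and F probes in 29.0%. By interval length the share was 26.5% up to 1 kb, 36.9% from 1 to 5 kb, 32.8% from 5 to 20 kb, 30.9% from 20 to 100 kb and 29.2% above 100 kb. By chromosome it ran from 22.0% on chromosome 9 and 24.4% on chromosome X to 39.3% on chromosome 17.

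**Figure D1:**
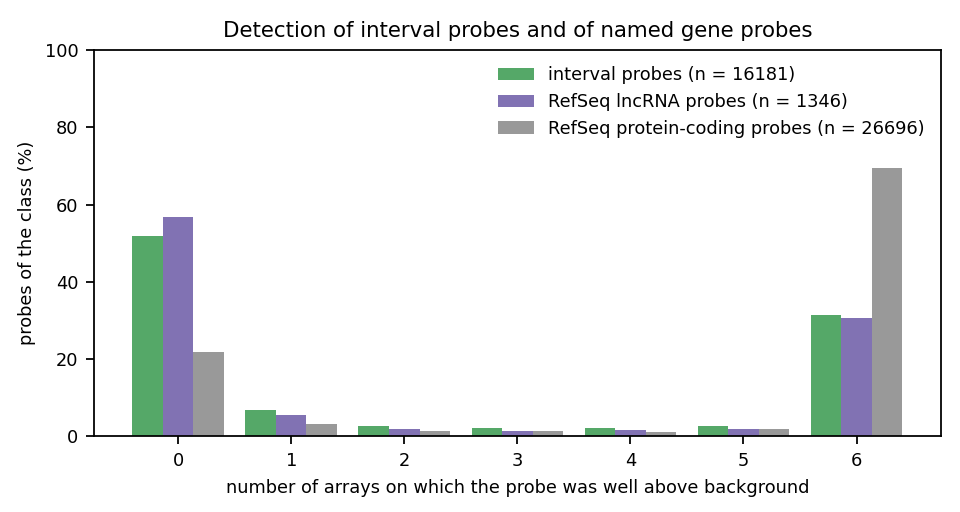
Share of probes of each class (y axis, percent) by the number of the 6 arrays on which they were well above background (x axis). Interval probes (green) and RefSeq long noncoding RNA probes (purple) pile up at 0 arrays (51.9% and 56.8%), and protein-coding probes (grey) at 6 arrays (69.5%).

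Probes of one stranded interval often disagreed on whether it was detected. At least 1 probe was detected on all 6 arrays for 2537 of the 4607 names (55.1%), and no probe was detected on any array for 1155 (25.1%). Among the 3382 names with 3 or more probes, every probe was detected on all 6 arrays for 377, some were for 1646 and none was for 1359. In 1359 of them (40.2%), a separate count that happens to have the same size, at least 1 probe was detected on all 6 arrays while another was detected on none. The F name of chr1:167797581-167803031 differed from these by 1 array: A_30_P01033113 was detected on every no DOX array and on 2 of the 3 DOX arrays, and the other 9 F probes on none.

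Of the 1067 intervals probed on both strands, both strands had a probe detected on all 6 arrays in 458 (42.9%). Only F did in 201 (18.8%), only R in 231 (21.6%) and neither in 177 (16.6%). In 203 intervals the contrast was complete, with a probe on all 6 arrays for one strand and no detection on any array for the other. The detected strand was F in 94 of these and R in 109.

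By the naming rule, 4 such intervals are given, those whose detected strand had the highest value on its lowest array. All 4 were detected on R. At chr13:41337973-41379821, 7 of 10 R probes were detected on all 6 arrays and the only F probe on none. Its R probe A_30_P01018826 read 6.88, 7.56 and 7.72 in the no DOX group and 7.43, 7.17 and 7.98 in the DOX group. These groups overlap, with the lowest value in a no DOX array and the highest in a DOX array. At chr1:193875525-193978800 both R probes were detected on all 6 arrays and none of 5 F probes on any. The R probe A_30_P01027122 read 6.27, 6.33 and 6.68 without DOX and 6.75, 6.65 and 6.94 with it, which also overlap. At chr2:65240793-65292293, 2 of 5 R probes were detected on all 6 arrays and none of the 5 F probes on any, and A_30_P01027432 stayed between 4.02 and 4.19 on all arrays. At chr1:52507332-52514490, 3 of 4 R probes were detected on all 6 arrays and the single F probe on none. There A_30_P01031145 read 4.27, 4.35 and 4.58 without DOX and 4.20, 3.97 and 4.15 with it, so that every DOX array was lower, by a difference of -0.29 ± 0.13 (SE, n = 3 per group; adjusted p = 0.29, limma) that did not pass the test.

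The Dek probe read 2.30, 2.10 and 2.20 without DOX and 2.41, 2.41 and 2.27 with DOX. The difference of 0.17 ± 0.11, 1.12-fold, did not pass (adjusted p = 0.456, limma; two-sided exact permutation p = 0.2, where 0.1 is the smallest that 3 against 3 allows). The groups overlapped, so the labelled induction is not seen in this probe, and the sources used here do not say whether the probe lies in the induced transcript. All 10 markers of stratified epithelium and all 10 of skeletal muscle were detected on all 6 arrays. The mean of the salivary and lingual gland list (9 of 10 tested) was 1.79 to 4.09 without DOX and 4.35 to 4.85 with DOX, lowest on no DOX array 2. The T cell list (8 of 10 tested) was -0.87 to -0.69 against -1.33 to -0.99, the neutrophil and macrophage list (9 of 10) 1.34 to 1.86 against 1.80 to 2.81, and the adipocyte list (9 of 10) 1.51 to 2.07 against 1.31 to 1.83. Arrays of the groups did not overlap for the gland and T cell lists and overlapped for the other 2. The part of these cell types in the differences between groups given here was not tested. Each array paired with every other at a correlation of 0.982 to 0.992 over 29056 probes.

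The comparison of DOX with no DOX used limma on every probe that was detected on each of the 3 arrays of one group or of both, 30924 probes of the whole array, with Benjamini-Hochberg adjustment over all of them and a threshold of 0.05. Of the interval probes, 5765 (35.6%) entered it and 10416 did not. Of those 5765, 5085 were detected on all 6 arrays, 477 entered through the no DOX group only and 203 through the DOX group only. Probes that entered through one group only were kept because they were bright there, so counts over tested probes describe the tested probes and not all 16181. In bulk tissue, fewer cells of a type and less RNA per cell cannot be told apart.

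Few interval probes passed. With DOX, 6 were higher and 6 were lower, 12 of 5765 (0.208%), where 0.398% of all tested probes passed (0.278% higher and 0.12% lower). The share called is thus no higher among interval probes than over the array. Of the 12, only A_30_P01029310, A_30_P01028955, A_30_P01023096 and A_30_P01024151 were detected on all 6 arrays. The others entered the test only through the group in which they were brighter, so the count of 12 depends in part on the filter. At an unadjusted p under 0.05 there were 938 interval probes (16.3%), against 18.7% of all tested probes. The 3 DOX arrays all lay above the 3 no DOX arrays for 470 interval probes (8.15%), against 12.8% of all tested probes, and all below for 757 (13.1%), against 12.7%. Over the 5085 probes detected on all 6 arrays, 394 lay wholly above (7.75%) and 644 wholly below (12.7%), against 12.8% and 12.3% of all 29056 probes detected on all 6.

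The median difference, DOX minus no DOX, was -0.04 on the log2 scale over the tested interval probes and -0.01 over all tested probes. Its sign depended on the filter: with no filter on dim probes it was 0.09 over all 16181 interval probes and 0.07 over all probes. With the filter, the mean was higher with DOX for 44.0% of the tested interval probes and 49.0% of all tested probes. Over the interval probes detected on all 6 arrays the median was -0.03. The array medians of the tested interval probes were -2.31, -2.34 and -2.36 without DOX and -2.38, -2.36 and -2.34 with it, so these overlap. The within-group spread was wider for the tested interval probes (median SD 0.22) than for the other tested probes (0.18). Among chromosomes, chosen after the values were seen, X had 1.26% of its 159 tested interval probes wholly above and 17.6% wholly below. These shares were 8.15% and 13.1% over all tested interval probes, and 12.8% and 12.7% over all tested probes. Chromosome 2 had a higher share wholly below (18.5% of 410), and chromosome 18 had the next lowest share wholly above (3.5% of 200).

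None of the 12 calls passed in all 6 fits that each left out 1 array. Without no DOX array 1 no interval probe passed, although 745 had an unadjusted p under 0.05, and without no DOX array 2 none passed and 727 did. Without no DOX array 3, and without DOX array 1, 2 or 3, the number was 3, 6, 9 and 2. With another background correction (normexp) 11 passed, 3 higher and 8 lower, of which 4 were among the 12. The share of all tested probes is not given for these fits, so their counts cannot be set against the whole array.

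**Figure D2:**
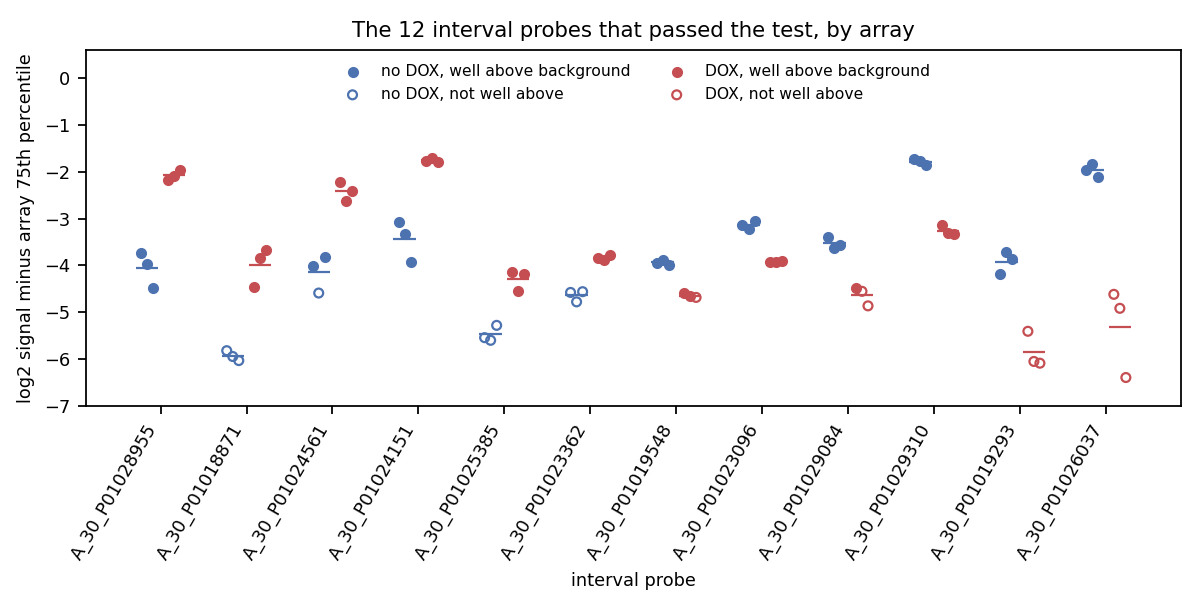
Values on each array (log2 signal minus the array's 75th percentile, y axis) for the 12 interval probes that passed the test (x axis), ordered by their difference. Filled points were well above background, open points were not, and short lines are group means; 5 probes have open points on every array of one group.

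The lowest adjusted p belonged to A_30_P01029310, the only probe of chr7:129299426-129299916 on F, an interval of 491 bp. It read -1.72, -1.77 and -1.85 in the no DOX group and -3.14, -3.32 and -3.32 in the DOX group. The groups are far apart compared with their own spread. The difference was -1.48 ± 0.11 (SE, n = 3 per group), 2.78-fold lower with DOX (adjusted p = 0.0116, limma). It passed in 4 of the 6 fits that left out an array, and with normexp the difference was -0.56 (adjusted p = 0.0433). No other probe carries this name, and whether probes of other names lie in the interval was not checked.

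Of the probes that passed and were detected in both groups, the largest rise was at chr1:20669157-20672643 on F, 3487 bp, with 3 probes. A_30_P01028955 read -3.75, -3.98 and -4.47 without DOX and -2.18, -2.09 and -1.96 with DOX. This is a difference of 1.99 ± 0.20 (SE, n = 3 per group), 3.97-fold higher (adjusted p = 0.0231, limma). A_30_P01024151 read -3.07, -3.33 and -3.93 against -1.78, -1.70 and -1.78. Its difference was 1.69 ± 0.22, 3.22-fold higher (adjusted p = 0.0454). The third probe, A_30_P01028051, read -3.83, -5.52 and -4.60 against -2.80, -2.72 and -2.89, and was detected on 1 of the 3 no DOX arrays. Its difference of 1.85 ± 0.39 did not pass (adjusted p = 0.0991). In all 3 probes every DOX array was above every no DOX array, and the DOX arrays lay closer together. With normexp, A_30_P01028955 and A_30_P01024151 differed by 0.76 and 0.74 and both passed; leaving out single arrays, the first passed in 1 of 6 fits and the second in none.

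Another probe that rose also passed with a level measured in both groups. A_30_P01024561, the only probe of chr15:60989423-60997290 on F, read -4.01, -4.59 and -3.83 without DOX, with 2 of 3 arrays well above background, and -2.22, -2.63 and -2.41 with DOX. The difference was 1.73 ± 0.22, 3.31-fold (adjusted p = 0.0438), and it did not pass with normexp, where it was 0.37 (adjusted p = 0.0612).

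For 3 more probes that rose, none of the untreated arrays was well above background, so the change has only a lower bound. The bound sets the DOX mean against the no DOX mean in which each array takes the higher of its own value and the lowest signal well above background on that array. A_30_P01018871 at chr13:113555055-113564665 on F read -5.82, -5.95 and -6.03 without DOX and -4.47, -3.84 and -3.67 with DOX, at least 1.75-fold higher (group means -5.94 and -3.995; adjusted p = 0.0304). A_30_P01025385 at chr9:118059348-118079494 on F read -5.55, -5.60 and -5.28 against -4.15, -4.54 and -4.19, at least 1.42-fold higher (means -5.48 and -4.29; adjusted p = 0.0451). A_30_P01023362 at chr10:9322308-9332183 on F read -4.58, -4.78 and -4.56 against -3.85, -3.88 and -3.79, at least 1.74-fold higher (means -4.64 and -3.84; adjusted p = 0.0482). In each the groups were apart, but the untreated level is unmeasured. None of these 3 passed with normexp.

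The other probes of these intervals gave little to set beside them. The remaining 2 F probes at chr13:113555055-113564665 and the remaining 2 at chr9:118059348-118079494 did not enter the test. Of the chr9 pair, A_30_P01032339 read -6.78, -5.98 and -6.74 against -4.72, -4.39 and -4.93, without being well above background on any array. At chr10:9322308-9332183 the other 3 F probes did not enter, and the R probe that did, A_30_P01023570, read -2.17, -2.38 and -2.50 against -2.33, -2.20 and -2.41, a difference of 0.04 ± 0.13 (adjusted p = 0.911).

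The largest fall among the 12 was at chr5:122982442-123000053 on F. A_30_P01026037 read -1.96, -1.82 and -2.12 without DOX and -4.62, -4.92 and -6.40 with DOX, where no array was well above background. It was at least 6.30-fold lower with DOX (group means -1.97 and -5.31; adjusted p = 0.0478, limma). Of the other 4 F probes of the interval, 3 were detected on no array and 1, A_30_P01029424, on 2 no DOX arrays and 1 DOX array, with values of -4.87, -4.34 and -4.26 against -4.24, -4.95 and -4.54. The fall of A_30_P01026037 is therefore not seen in the other F probes, whose signal was at or near background in both groups. On R, A_30_P01029193 read -2.28, -2.69 and -2.70 against -2.30, -2.28 and -2.13, a difference of 0.32 ± 0.15 (adjusted p = 0.30). A_30_P01025923 read -1.84 on no DOX array 1 and between -5.24 and -4.17 on the other 5 arrays. A_30_P01026037 passed with normexp too, with a difference of -0.82 (adjusted p = 0.011), and in 1 of 6 fits that left out an array.

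A fall at chrX:18810088-18814982 on R also has only a bound. A_30_P01019293 read -4.18, -3.72 and -3.87 without DOX and -5.41, -6.05 and -6.09 with DOX, where no array was well above background. It was at least 1.69-fold lower (means -3.92 and -5.85; adjusted p = 0.0331). A second probe of the interval, A_30_P01017830, read -2.70, -2.98 and -2.50 against -2.99, -3.67 and -3.14, a difference of -0.54 ± 0.21 that did not pass (adjusted p = 0.246). Its DOX arrays were lower, by a narrow margin.

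At chr2:115900355-115900904 on F, 550 bp, all 3 probes were lower on every DOX array. A_30_P01029084 read -3.39, -3.62 and -3.56 without DOX and -4.49, -4.55 and -4.87 with DOX, where 1 array was well above background. The difference was -1.11 ± 0.14, 2.16-fold lower (adjusted p = 0.041). A_30_P01031324 read -0.74, -1.36 and -1.27 against -2.16, -1.82 and -1.84. A_30_P01031970 read -1.38, -1.84 and -1.72 against -2.77, -2.29 and -2.34. Both of the latter differed by -0.82 and did not pass (adjusted p = 0.117 and 0.106), and both had no DOX array 1 highest and DOX array 1 lowest.

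The remaining 2 falls were small and tight. A_30_P01023096 at chr3:85781157-85781727 on F read -3.14, -3.23 and -3.05 without DOX and -3.92, -3.93 and -3.91 with DOX, a difference of -0.78 ± 0.10, 1.72-fold (adjusted p = 0.0424). The other 2 probes of that name had overlapping groups, with differences of -0.26 ± 0.28 and -0.57 ± 0.35. A_30_P01019548 at chr4:12050675-12066450 on F read -3.94, -3.88 and -3.98 against -4.60, -4.65 and -4.68, a difference of -0.71 ± 0.09, 1.63-fold (adjusted p = 0.0482), with 2 of the 3 DOX arrays well above background. The other 3 F probes of that interval differed by -0.59, -0.00 and 0.45, and its 3 tested R probes by -0.10, 0.23 and 1.71, none passing. The R value of 1.71 rests on DOX array 1, where A_30_P01017811 read 2.75 against -1.44 to -0.21 on the other 5 arrays. With normexp neither A_30_P01023096 nor A_30_P01019548 passed.

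Just short of the threshold were probes with the same kind of separation. The clearest set was chr8:83210957-83219451 on F, whose 3 probes were all higher with DOX. A_30_P01032677 read -3.45, -3.52 and -3.22 without DOX and -2.40, -2.24 and -1.81 with it, a difference of 1.25 ± 0.18 (adjusted p = 0.0564). A_30_P01027176 read -3.11, -3.12 and -3.12 against -2.21, -2.09 and -1.50, a difference of 1.18 ± 0.19 (adjusted p = 0.0706). A_30_P01018173 differed by 1.11 ± 0.23 (adjusted p = 0.098). In all 3 probes DOX array 3 was the highest.

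For 4 other probes near the threshold, the remaining probes of the interval gave other values or none. A_30_P01021316 at chr2:151992806-152025456 on F read 1.95, 2.11 and 2.32 without DOX and 1.31, 1.13 and 1.28 with DOX, a difference of -0.89 ± 0.13 (adjusted p = 0.0572). The other 6 tested F probes of this 32651 bp interval differed by -0.24 to 0.38, and its 2 tested R probes by -0.16 and 0.11. A_30_P01022759 at chr7:106525007-106525661 on R differed by -0.91 ± 0.12 (adjusted p = 0.0506), and its neighbours under the same name by -0.12 and 0.91. A_30_P01032266 at chr14:28231577-28242027 on F differed by 0.64 ± 0.10 (adjusted p = 0.0706), and the other 6 F probes, detected on no array, did not enter the test. On R of that interval, A_30_P01021426 read -4.38, -4.41 and -4.22 without DOX and -3.62, -3.56 and -3.86 with DOX, a difference of 0.65 ± 0.12 that did not pass (adjusted p = 0.0857). Every DOX array was higher in both probes, and A_30_P01021126 on R was higher by 0.18 ± 0.11, while the 2 other tested R probes differed by -0.03 and -0.00. A_30_P01027636 at chr2:22753100-22780375 on F differed by 0.86 ± 0.14 (adjusted p = 0.0706), against -0.15 ± 0.12 for the other F probe.

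On the lower side, A_30_P01023414 at chr14:99656262-99656858 on R differed by -0.80 ± 0.11 (adjusted p = 0.0536), and its partner was not detected on any array. A_30_P01019834 at chr1:85156338-85167730 on R differed by -0.76 ± 0.11 (adjusted p = 0.0585), and a second probe, A_30_P01032258, by -0.37 ± 0.10 (adjusted p = 0.135). A_30_P01031064 at chr2:60581618-60589907 on F was detected on none of the DOX arrays and was at least 1.17-fold lower (means -4.46 and -5.67; adjusted p = 0.0734). The 3 other tested probes of that name differed by -0.64, -0.44 and -0.16, the same direction.

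Where several probes of one name were tested, their directions could be set side by side. Probes of one name share an interval and may overlap in sequence, and all values come from the same 6 arrays, so they are not independent. Of the 836 names with 3 or more tested probes, the mean difference was above 0 for every probe in 152, below 0 for every probe in 272 and of mixed sign in 412. The median range of the differences within a name was 0.30. In 52 names the DOX and no DOX arrays were apart for every tested probe, 17 higher and 35 lower. Of all single tested probes on the array, 12.8% lay wholly above and 12.7% wholly below. A like count by name was not made for the other probes, so the 52 cannot be set against the whole array.

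The names described next were chosen from those 52 after their values were seen. The longest series was chr17:26911397-26917047 on F, 5651 bp, where all 10 probes on the array were tested and all 10 were lower on every DOX array. The means of the 10 probes were 1.20, 0.97 and 0.75 on the no DOX arrays and -0.19, 0.35 and 0.18 on the DOX arrays. DOX array 1 was lowest and no DOX array 1 highest. The differences ran from -0.99 to -0.71 with a median of -0.86, a fold of 1.82, and adjusted p-values from 0.084 to 0.127, so that none passed.

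At chr10:69669025-69686275 on F, 17251 bp, all 5 probes were tested and lower. Their means were 1.88, 2.41 and 1.55 without DOX and 1.06, 1.39 and 0.79 with DOX, differences of -0.89 to -0.82 (adjusted p from 0.151 to 0.179). The lowest no DOX mean, on array 3, is 0.15 above the highest DOX mean, on array 2. In both of these names the values of the probes ran almost in parallel from array to array.

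Lower values at 3 probes each were seen at chr10:3231337-3231802 on F, chr13:108653722-108654406 on R and chr19:5834117-5835940 on R. At chr10:3231337-3231802 the means were -1.57, -1.49 and -1.66 against -2.29, -3.16 and -2.54. At chr13:108653722-108654406 they were 0.94, 0.62 and 0.82 against 0.01, -0.43 and 0.09. At chr19:5834117-5835940 they were 3.996, 4.36 and 4.30 against 3.61, 2.80 and 3.69. DOX array 2 was the lowest in each of these 3 names, and none of their probes passed (lowest adjusted p = 0.0592, 0.0631 and 0.159).

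The lowest median difference of the 52, -1.74 at chr1:85304494-85305390 on R, came with a wide untreated group. Its 3 probes had means of 1.24, -0.89 and -0.76 without DOX and -2.10, -1.85 and -1.74 with DOX. No DOX array 1 stood 1.99 above the next array, and none of the 3 probes passed (lowest adjusted p = 0.131).

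Of the 17 names with every probe higher, the largest medians after chr1:20669157-20672643 were 1.25 at chr9:75316023-75344401 on F and 1.18 at chr8:83210957-83219451 on F. At chr9:75316023-75344401, 3 of 10 probes were tested, with means of -4.41, -5.24 and -4.19 against -3.01, -3.63 and -3.40 (lowest adjusted p = 0.0983). Of these 3, A_30_P01022985 was detected on no untreated array and the others on 2 of 3, so the untreated means rest in part on signal at background. At chr12:109619407-109619843 on F the 3 probes had means of -1.83, -1.96 and -2.42 against -1.27, -0.79 and -1.65. There the nearest arrays of the groups were 0.18 apart. At chr17:95255725-95272425 on R the 5 probes had means of 0.13, 0.14 and 0.13 against 0.42, 0.36 and 0.48, a small and even difference with a median of 0.28 (lowest adjusted p = 0.187).

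**Figure D3:**
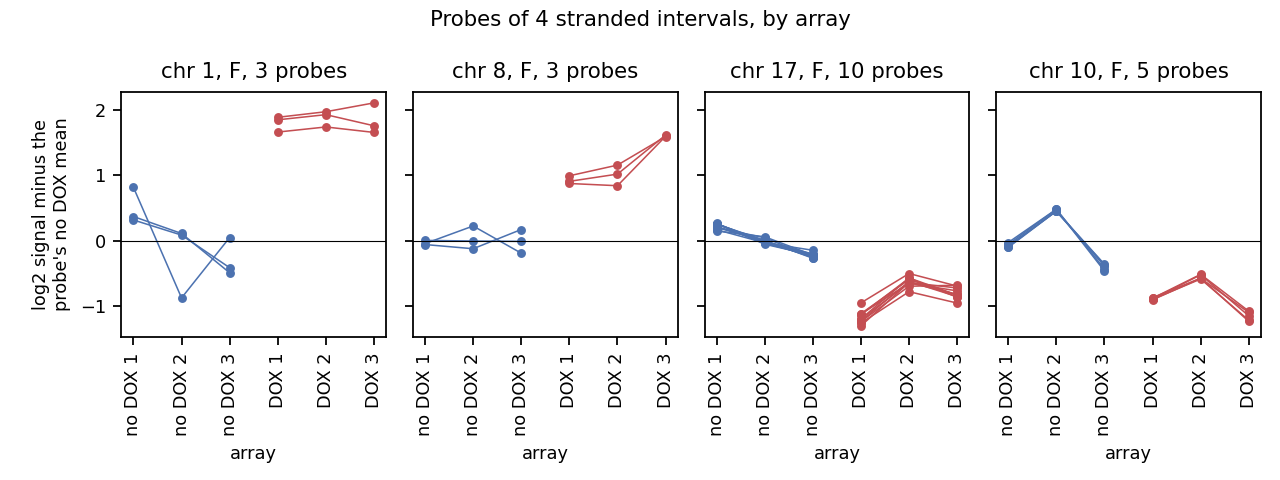
Each line is 1 probe, drawn as its value minus its own no DOX mean (log2, y axis) on the 3 no DOX arrays (blue) and 3 DOX arrays (red). The 3 probes of the chromosome 1 name and 3 of the chromosome 8 name lie higher with DOX, and the 10 of the chromosome 17 name and 5 of the chromosome 10 name lie lower.

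The strands of one interval showed less in common than probes of one strand did. For the 522 intervals with tested probes on both strands, the first tested probe of F and the first of R, in order of probe number, gave differences with Pearson's r of 0.10 and Spearman's rho of 0.10 across intervals. Among the same intervals, the first 2 tested probes of one strand gave r of 0.31 and rho of 0.33 over 623 names. The signs were opposite in 43.9% of the F and R pairs and 37.7% of the same-strand pairs. Over all 1435 names with at least 2 tested probes, r was 0.47 and rho 0.48. These points share the 6 arrays and neighbouring genome sequence, so the correlations are descriptions across intervals and carry no p. By strand medians, F and R were both higher in 131 intervals, both lower in 158 and opposite in 233.

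**Figure D4:**
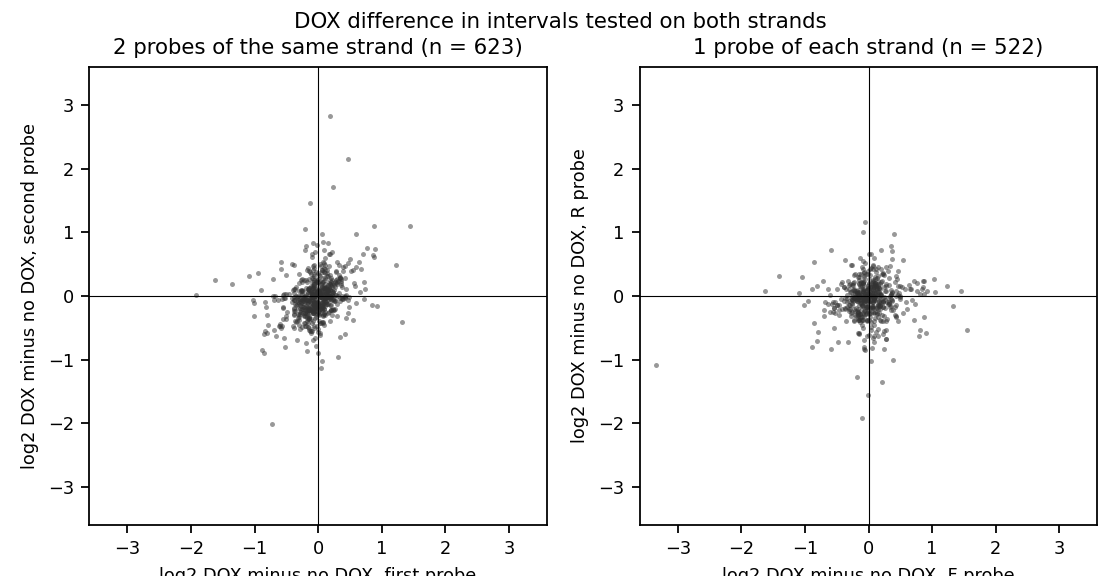
Difference between DOX and no DOX (log2) for 2 probes of the same strand (left, 623 names) and for 1 F and 1 R probe (right, 522 intervals), all from intervals tested on both strands. Points spread along the diagonal on the left (r = 0.31) more than on the right (r = 0.10).

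The intervals with the smallest p on either strand, beyond those already described, had their tested probes mostly on one strand. At chr1:167797581-167803031 the R probe A_30_P01017969 read -1.51, -1.62 and -1.43 without DOX and -2.28, -2.15 and -2.30 with DOX, a difference of -0.72 ± 0.11 that did not pass. The other tested R probes detected in both groups differed by -0.76, -0.42 and -0.16, and the 1 tested F probe by -0.48, the same direction. The remaining tested R probe, A_30_P01019254, was detected on none of the DOX arrays. It read -0.98 on no DOX array 2 against -4.20 on both other untreated arrays. At chr2:157361470-157379813 the R probe A_30_P01023980 read -3.54, -3.64 and -3.66 against -4.55, -4.47 and -4.22. The other 5 tested R probes detected in both groups differed by -0.53 to 0.01. A_30_P01026938, detected on none of the DOX arrays, was at least 1.45-fold lower. The 1 tested F probe differed by 0.27 ± 0.20, and 9 of the 10 F probes were not tested.

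Some intervals lie close together, and the 5 loci with the most tested probes were followed as groups. No probe in them passed. At chr11:95561419-95658549, 28 of 43 probes were tested and 22 had a lower mean with DOX, with a median of -0.23. Its F probes (median -0.28, 15 probes) and R probes (median -0.19, 13 probes) had the same sign, and 9 probes lay wholly below and 1 wholly above, where 12.7% and 12.8% of all tested probes did. At chr16:89961600-90127636, 25 of the 28 tested probes were on R, with a median of -0.28 and a range from -1.07 to 0.50.

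At chr6:30983012-31293337, 22 of 26 tested probes had a lower mean. The R name chr6:31115515-31168433 gave the largest differences there, -0.88 to -0.78 for its 3 probes (lowest adjusted p = 0.0612), and chr6:31078802-31079644 on R gave -0.55 to -0.44 for 3 probes. In both names every DOX array was below every no DOX array. The F probes of this locus had a median of -0.08 against -0.21 on R.

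At chr17:46972160-47023558, F (median 0.06, 11 probes) and R (median -0.19, 14 probes) had medians of opposite sign. At chr19:5771425-5848475, 25 of 27 probes were tested, and again F had a median of 0.05 and R of -0.15. The R side of that locus was uneven: the 3 probes of chr19:5834117-5835940 differed by -0.96 to -0.68, the 3 of chr19:5798135-5800557 by -0.16 to -0.04 and the 3 of chr19:5801802-5802597 by -0.16 to -0.12. The single tested probe of chr19:5771425-5848475 on R, A_30_P01028538, was higher by 0.43 ± 0.12 (adjusted p = 0.143).

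**Figure D5:**
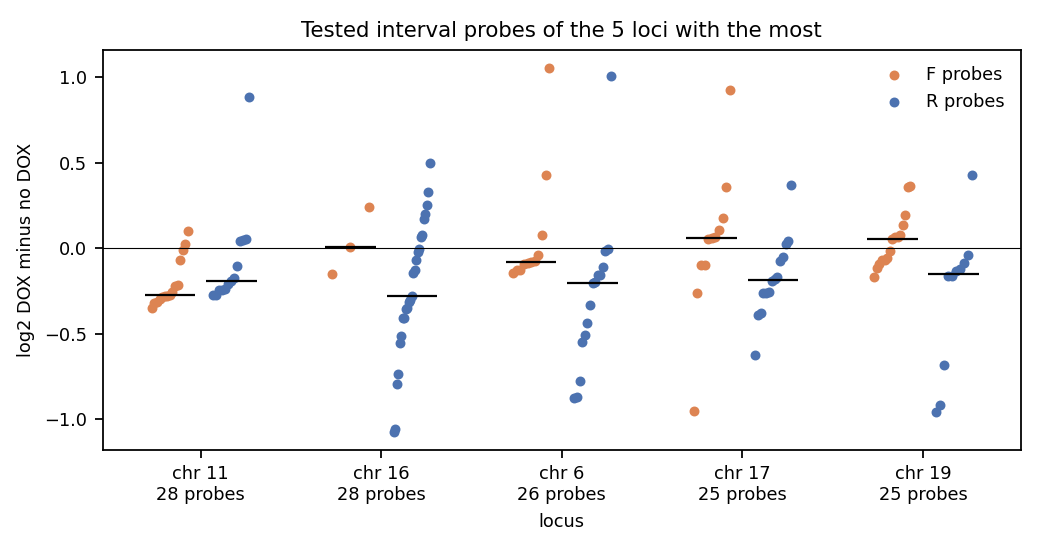
Difference between DOX and no DOX (log2, y axis) for each tested interval probe of the 5 loci with the most tested probes (x axis), F in orange and R in blue, with the median of each strand as a black line. Medians lie between -0.28 and 0.06, and single probes reach -1.07 and 1.05.

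Named long noncoding RNA genes on the same arrays served as a comparison. Of a list of 70, 66 were in the gene table, 43 had a probe and 34 were tested. None passed (limma), and 9 of the 34 had an unadjusted p under 0.05, against 18.7% of all tested probes. Of the means, 20 were higher and 14 lower, with a median difference of 0.03. Each gene is represented by 1 probe. Where several were tested, the probes of Tug1, Ftx, Airn, Norad and Meg3 differed in sign. Those of Lncpint, Kcnq1ot1 and Pvt1 had the same sign. The DOX arrays lay wholly above for 3 genes and wholly below for 8, against 12.8% and 12.7% of all tested probes.

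Lncpint, a p53-linked intergenic RNA, read 2.12, 2.16 and 1.67 without DOX and 1.12, 1.17 and 1.27 with DOX, a difference of -0.79 ± 0.15 (adjusted p = 0.0886). Snhg3, a small nucleolar RNA host gene, read 2.51, 2.47 and 2.80 against 3.43, 3.01 and 3.27, a difference of 0.64 ± 0.15 (adjusted p = 0.118). Malat1, an abundant nuclear RNA of splicing speckles, read 1.69, 1.88 and 1.75 against 2.43, 2.04 and 2.18, a difference of 0.44 ± 0.13 (adjusted p = 0.165). These 3 had groups that were apart. Firre, a nuclear RNA encoded on chromosome X, differed by -0.36 ± 0.11 (adjusted p = 0.17), with every DOX array lower.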

How the data were processed

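Total RNA from the tongue of 6 mice was labelled with Cy3 and hybridised to 6 arrays of 1 slide, per the labels' protocols and the file headers, and read with Agilent Feature Extraction 11.5.1.1, per the submitters' processing notes. The deposited intensity of each spot is the processed signal, background-subtracted by that software per the file headers; no spot was saturated. Spots called population or non-uniformity outliers by the software were left out. Coordinates are those of the probe names, on NCBI37 per the file headers.

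From the intensity, log2 minus each array's 75th percentile over probes was computed and tested with limma 3.58.1 (lmFit and eBayes, R 4.3.3) on the 30924 probes detected (well above background) on each of the 3 arrays of one group or of both. The p-values were Benjamini-Hochberg adjusted over all of them, and the test was tried on simulated data. The deposited value table holds the same intensity times one factor per array, and was used as an alternative. The labels do not say whether mice shared a litter or cage, so p-values measure the spread between these samples.

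The probe set and the lists were chosen with earlier results of these data known. Named were the interval probes that passed, then those of smallest p with separate groups up to 10 per direction. Also named were 6 strand pairs of smallest p and the 4 brightest intervals detected on one strand only. The rest were up to 6 probes detected in one group only, 5 loci, Dek and 4 long noncoding RNA genes of smallest p. Names with every tested probe apart were chosen after their values were seen. Neighbouring genes and probe sequences were not used here. The replicate numbers of the titles were not treated as pairs. Deviations of same-numbered arrays correlated at -0.13, 0.03 and 0.03, which cannot settle whether the mice were paired.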

Additional observations from a re-analysis of the deposited data

How the results depend on the processing

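For the 12 interval probes that passed, no difference changed sign under any alternative run that tested them, but calls did depend on the setting. Against 12 interval probes passing (limma), 6 passed after quantile normalization and 5 among probes detected on all 6 arrays. With array weights 28 passed, 11 higher and 17 lower. With no filter on dim probes 0 passed, and 1408 had an unadjusted p under 0.05. With the replicate number as a block, 0 passed and 935 had an unadjusted p under 0.05. Leaving out 1 array at a time gave 0 to 9. The share over all tested probes is not given for these runs, so their counts cannot be set against the whole array. Interval probes whose groups did not overlap numbered 1227 of 5765, where 25.5% of all tested probes did not overlap. With no filter the count was 2293 of 16181, without the share over all probes beside it, and it was 1729 to 2201 when 1 array was left out. With 1 array fewer, fewer values have to lie apart, so these last counts cannot be set against 1227. The median difference over the tested interval probes, -0.0378, was -0.0155 with normexp, 0.0931 with no filter and -0.0504 to -0.027 when 1 array was left out. With a more lenient detection flag, 10413, 10692 and 10097 interval probes on the no DOX arrays and 10663, 10534 and 10135 on the DOX arrays were detected. The cause was not tested for any of these. The remaining limit is signal over background: 8392 interval probes were not well above it on any array. For 64 of the tested interval probes, 1 group had only a bound.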

Other observations

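Some tested interval probes gave a value on 1 array that lay over 2 log2 units from the nearest of the other 5. Of these, 16 were high and 7 low. Probes well above background on 1 array only did not enter the test and are not counted. A_30_P01020703 at chr2:35828611-35838083 on F read 1.03 on no DOX array 2 and -3.80 to -3.37 on the other arrays. A_30_P01017811 at chr4:12050675-12066450 on R read 2.75 on DOX array 1, and A_30_P01019254 at chr1:167797581-167803031 on R read -0.98 on no DOX array 2 with the other arrays at -5.45 to -4.20. The 16 high values of tested probes were spread over all 6 arrays.

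Of the 7 low values, 6 were on no DOX array 1. They included 2 probes of one name, chr15:85412264-85549139 on R, where A_30_P01021253 read -3.77 on that array and -1.38 to -0.72 on the others, and A_30_P01020271 read -3.96 against -1.85 to -1.26. A_30_P01024034 at chr11:112898724-113062945 on R read -1.61 on that array and 0.40 to 0.97 on the others. The chr1:85304494-85305390 name on R, by contrast, was high on the same array, with A_30_P01022910 at 1.39 against -2.14 to -0.76.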
